A study of Mus musculus with 6 samples.

Results

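The transcription factors that carry a precursor cell into the skeletal muscle program were read as a group of 9 genes, Pax7, Myf5, Myod1, Myog, Myf6, Mef2a, Mef2c, Mef2d and Six4, out of 55450 genes in the table. A gene was taken where its symbol in the table matched one of these names exactly, and each name matched 1 row. Pax7, Myf5 and Myod1 were treated as early factors, Myog, Myf6 and Mef2c as late factors, and Mef2a, Mef2d and Six4 as partners. RNA-seq had been made on C2C12 cells, a mouse muscle precursor line that fuses into myotubes in culture. The 6 libraries were 3 of cells transfected with an siRNA against Cd36 (siCD36) and 3 with a control siRNA (siCont), and Cd36 encodes a fatty acid uptake receptor. Both groups carried the same C57BL/6 strain label, both received siRNA at 20 nM, and both were collected 72 h later according to the methods. The sample labels call the cells myoblasts and the study's methods call them myotubes, and all 6 libraries come from 1 cell line. Which Cd36 duplex was used is not given in the labels, and the labels do not say whether the replicates were separate cultures, so the p-values reflect variation among these libraries that could be technical alone.

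Total counts were 67048354 to 71878709 per siCD36 library and 56907806 to 60566530 per siCont library. Cd36 itself had 38, 32 and 30 counts in siCD36 replicates 1 to 3 against 1010, 1129 and 1103 in siCont replicates 1 to 3, so the labels fitted the targeted gene. The muscle markers Des, Acta1, Ckm and Ttn were all expressed in every library. FPKM is a level scaled to gene length and library depth. Across the 11796 genes whose mean over the libraries reached 1 FPKM, the median log2 fold change was 0.00.

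In vertebrate muscle, Pax7 marks the satellite cell, the resident stem cell, and Myf5 and Myod1 commit its progeny to the myogenic lineage. Myog and Myf6 are the related factors that act during and after terminal differentiation. All of the myogenic regulatory factors (MRFs), namely Myf5, Myod1, Myog and Myf6, bind the E-box as dimers with E proteins, whereas MEF2 proteins bind an A/T-rich box and Six4 and its relatives bind the MEF3 site, and the 3 classes of site often stand together before muscle genes.

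The sequence before the Myog start site is shown because it holds all 3 classes of site in a single stretch, with Myf5 and Mef2c beside it as an early and a late factor to compare. The sequences are from RefSeq on the GRCm38.p6 build, cover the 250 bases before the start site and run 5′ to 3′ on the strand of the gene. They are chr1:134289754-134290003 on the plus strand for Myog, chr10:107486135-107486384 on the minus strand for Myf5 and chr13:83503784-83504033 on the plus strand for the first of 3 Mef2c starts. Capitals mark matches to the E-box CANNTG, the MEF2 box CTANNNNTA or the MEF3 site TCAGGTT on either strand.
Myog: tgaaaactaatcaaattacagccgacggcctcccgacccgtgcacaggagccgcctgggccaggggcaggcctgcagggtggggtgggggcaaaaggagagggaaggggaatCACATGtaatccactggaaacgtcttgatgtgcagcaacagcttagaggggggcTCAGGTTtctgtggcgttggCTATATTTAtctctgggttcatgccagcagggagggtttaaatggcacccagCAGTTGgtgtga
Myf5: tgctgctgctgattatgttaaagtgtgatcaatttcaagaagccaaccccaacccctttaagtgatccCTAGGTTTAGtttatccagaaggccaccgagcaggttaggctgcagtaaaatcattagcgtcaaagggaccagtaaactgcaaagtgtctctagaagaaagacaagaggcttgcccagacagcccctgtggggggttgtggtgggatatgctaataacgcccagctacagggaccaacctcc
Mef2c: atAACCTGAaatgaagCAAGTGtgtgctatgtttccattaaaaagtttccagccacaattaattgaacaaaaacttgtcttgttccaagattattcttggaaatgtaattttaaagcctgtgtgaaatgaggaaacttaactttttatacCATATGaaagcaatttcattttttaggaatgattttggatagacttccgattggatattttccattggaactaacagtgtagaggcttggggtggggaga

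The Myog sequence held 2 E-boxes, at −138 to −133 and −12 to −7 from the start site, with a MEF3 match at −84 to −78 and a MEF2 box at −64 to −56 between them. The deposited gene model of Myog begins slightly before the RefSeq start, within this window. The Myf5 sequence held no E-box and no MEF3 match, and its capitals are 2 overlapping matches to the MEF2 box, at −182 to −174 and −181 to −173. The Mef2c sequence held 2 E-boxes, at −234 to −229 and −100 to −95, and a MEF3 match on the opposite strand at −248 to −242. Entries were found for 7 of the 9 genes, 10 start sites in all, with none for Myod1 and Myf6. Among the others, the first of the Six4 starts held a MEF3 match at −97 to −91, the last Mef2c start held 1 E-box and 1 MEF2 box, and no match was found for Pax7, Mef2a or Mef2d. These matches describe letters only, since E-boxes were in 66.2% of all 32851 windows of the same length, MEF2 boxes in 19.0% and MEF3 matches in 3.49%.

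By level, Myog was by far the most abundant of the 9, with a mean of 404 FPKM over the 6 libraries. It was followed by Myod1 at 48.3, Mef2d at 33.0, Mef2a at 14.6, Myf5 at 5.55, Six4 at 4.65, Mef2c at 4.18, Myf6 at 0.981 and Pax7 at 0.0405 FPKM. The ranges over libraries of Myog, Myod1, Mef2d, Mef2a and Myf5 did not overlap from each to the next, and from Myf5 downwards each range overlapped the one after it. For scale, the median of all genes tested was 6.46 FPKM.

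**Figure D1:**
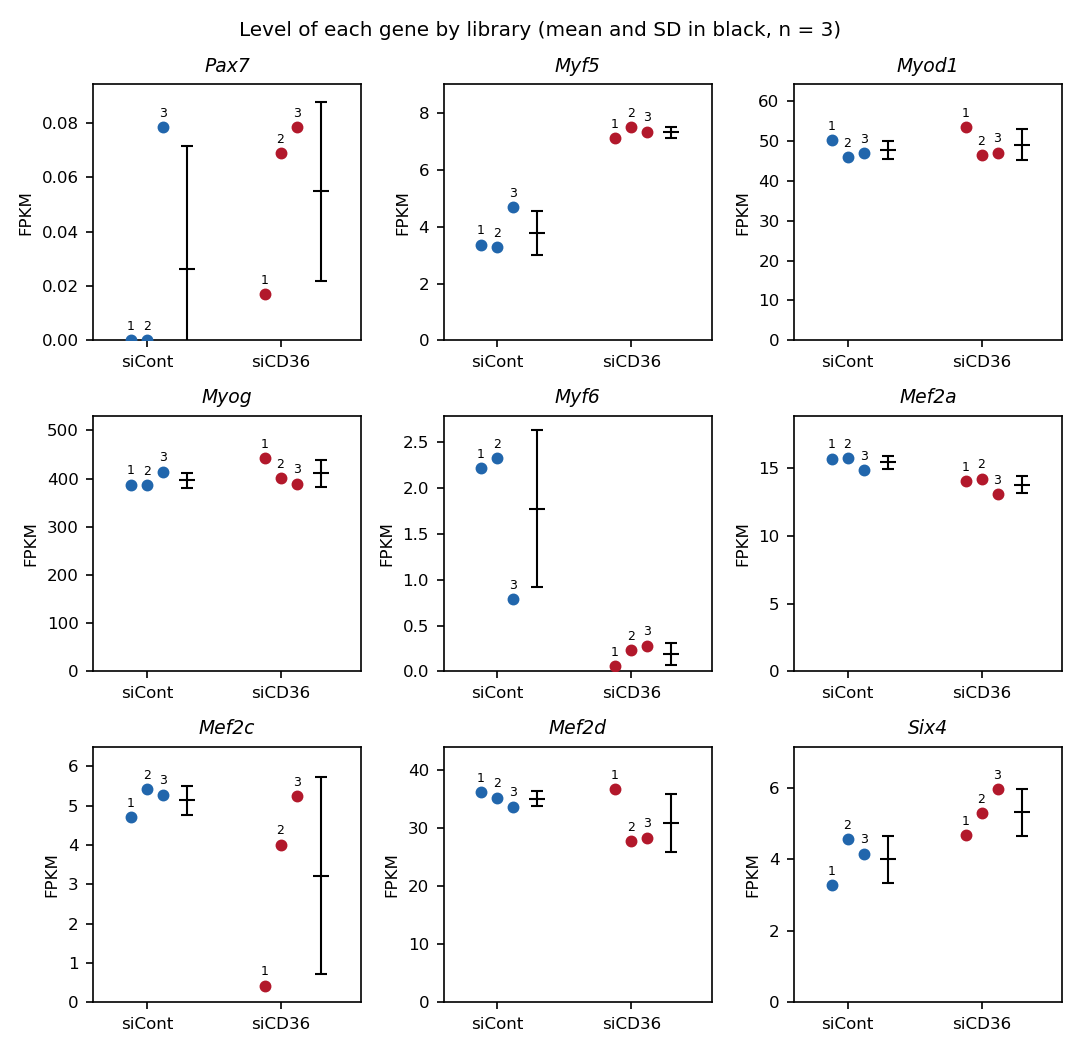
Level of each of the 9 factors in FPKM (vertical axes, linear, each with its own scale) in the 3 siCont (blue) and 3 siCD36 (red) libraries, numbered by replicate, with the mean and SD in black (cut at 0 for Pax7). The Myf5 points of the groups are far apart, at 3.28 to 4.68 and 7.11 to 7.51 FPKM, and 1 siCD36 library stands alone in the Mef2c panel at 0.426 FPKM.

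Of the 9 genes, 7 passed the filter of a mean of at least 1 FPKM and were tested, and Pax7 and Myf6 fell below it. At an adjusted p under 0.05 in edgeR's quasi-likelihood test, 1 of the 7 changed, Myf5, which rose with siCD36, and none fell. In the same test, 5.26% of all genes were called, 2.20% as higher and 3.06% as lower. At an unadjusted p under 0.05, 2 of the 7 were higher (Myf5 and Six4) and 1 was lower (Mef2a), beside 25.4% of all genes, 12.5% higher and 12.9% lower. DESeq2, which called 14.3% of the genes it gave an adjusted p, called Myf5 alone among the 7. The median log2 fold change of the 7 was 0.01. The levels of the groups did not overlap for 3 of the 7 (Myf5, Mef2a and Six4), or 42.9%, against 32.4% of all genes tested.

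Myf5, the earliest MRF to appear in the embryo and a determination factor, was the factor that moved. Its level was 7.11, 7.51 and 7.35 FPKM in siCD36 replicates 1 to 3 and 3.37, 3.28 and 4.68 FPKM in siCont replicates 1 to 3, from 1116, 1210 and 1230 counts against 479, 465 and 624. Every siCD36 library was above every siCont library, and siCont replicate 3 was the highest control. The fold was 1.90, a log2 fold change of 0.93 with a standard error of 0.145 (edgeR adjusted p = 0.0274), and an exact permutation test of the 6 levels gave p = 0.1, the smallest that 3 against 3 samples allow. The direction held in all 19 alternatives, at log2 0.81 to 1.08. The call was lost when siCD36 replicate 2 (edgeR adjusted p = 0.116), siCD36 replicate 3 (0.0826), siCont replicate 1 (0.0790) or siCont replicate 2 (0.111) was left out. It was also lost in the edgeR fit with a block for replicate number (adjusted p = 0.0596). In whole-culture RNA, a larger share of cells holding Myf5 and more Myf5 RNA per cell cannot be told apart.

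Myod1, the other determination factor, which can turn fibroblasts into muscle, gave 53.4, 46.4 and 47.0 FPKM with siCD36 and 50.2, 45.9 and 46.9 FPKM with siCont. The groups overlapped, with siCD36 replicate 1 the highest of the 6 and siCont replicate 2 the lowest. The log2 fold change was 0.01 with a standard error of 0.0973 (edgeR adjusted p = 0.975), and its sign changed with the library left out.

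Pax7, the paired-box factor of satellite cells, was barely detected in this culture. It had 8, 32 and 37 counts in the siCD36 libraries and 0, 0 and 30 in the siCont libraries, or 0.0170, 0.0689 and 0.0784 FPKM against 2 libraries listed at the floor and 1 at 0.0784 FPKM. A count of 0 allows up to 3 counts, and siCont replicate 3 was as high as siCD36 replicate 3. The groups overlapped (exact permutation p = 0.4). The siCont counts of 0 and 30 differed beyond counting error, and with this spread a group difference in Pax7 was not detectable.

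Myog, the MRF needed for terminal differentiation and fusion in the mouse, stayed high in both groups. It gave 442, 401 and 389 FPKM with siCD36 and 388, 387 and 414 FPKM with siCont. The ranges overlapped, with siCD36 replicate 1 again the highest. The log2 fold change was 0.02 with a standard error of 0.0817 (edgeR adjusted p = 0.895), and the fits without 1 library gave −0.053 to 0.070.

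Myf6, the MRF that predominates in mature fibres, was low throughout and lower in every siCD36 library. It had 6, 23 and 29 counts with siCD36 and 191, 200 and 64 with siCont, which is 0.0578, 0.228 and 0.282 FPKM against 2.21, 2.32 and 0.784 FPKM. The groups did not overlap, although siCont replicate 3 held far fewer counts than the other controls. The exact 95% Poisson interval of the highest siCD36 count, 19.4 to 41.6, lay below that of the lowest siCont count, 49.3 to 81.7, and these intervals cover counting error only. An exact permutation test gave p = 0.1, the smallest possible here.

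Because the Myf6 mean lay just under the filter, it entered the test only where the filter was changed. Without the FPKM filter its log2 fold change was −3.24 with a standard error of 0.635 and an edgeR adjusted p of 0.0680, in a fit that called 1.25% of 26215 genes. With the filter of edgeR's own filterByExpr, which called 3.44% of 17396 genes, the adjusted p was 0.0461. With a mean of at least 0.5 FPKM, an alternative chosen after seeing the data that called 4.92% of 13371 genes, it was 0.0421. Left-out libraries moved the unfiltered log2 value between −3.61 and −2.84, always negative, with adjusted p of 0.0827 to 0.233.

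Myf5 and Myf6 are neighbours, 6719 bp apart on the minus strand of chromosome 10, with Myf5 at 107482908 to 107486134 and Myf6 at 107492853 to 107494737 in the table's coordinates. They differed in opposite directions, so the Myf5 to Myf6 ratio of FPKM was 123, 32.9 and 26.1 with siCD36 and 1.52, 1.41 and 5.97 with siCont. The siCont library with the highest Myf5, replicate 3, had the lowest Myf6 of its group. Among siCD36 libraries, replicate 1 had the lowest Myf6, while Myf5 differed little, at 7.11 to 7.51 FPKM. The ratio's groups did not overlap (exact permutation p = 0.1, 0.167 after adjustment over 5 ratios). No other gene within 200000 bp of either passed the filter.

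Mef2c, the MEF2 member most closely tied to differentiating muscle, was set by 1 library. It gave 0.426, 4.01 and 5.24 FPKM with siCD36 and 4.71, 5.42 and 5.28 FPKM with siCont, from 507, 4878 and 6615 counts against 5049, 5794 and 5309. siCD36 replicate 1 was far below the other 5 libraries, while siCD36 replicate 3 lay inside the control range. The log2 fold change was −0.72 with a standard error of 0.744 (edgeR adjusted p = 0.592), and without siCD36 replicate 1 it was −0.20. Of the 11796 genes tested, 19 were below a 1/5 of the lowest other library in siCD36 replicate 1, and 5 to 20 were so in each of the other libraries. By FPKM, the same library was the highest for Myog, Myod1 and Mef2d.

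**Figure D2:**
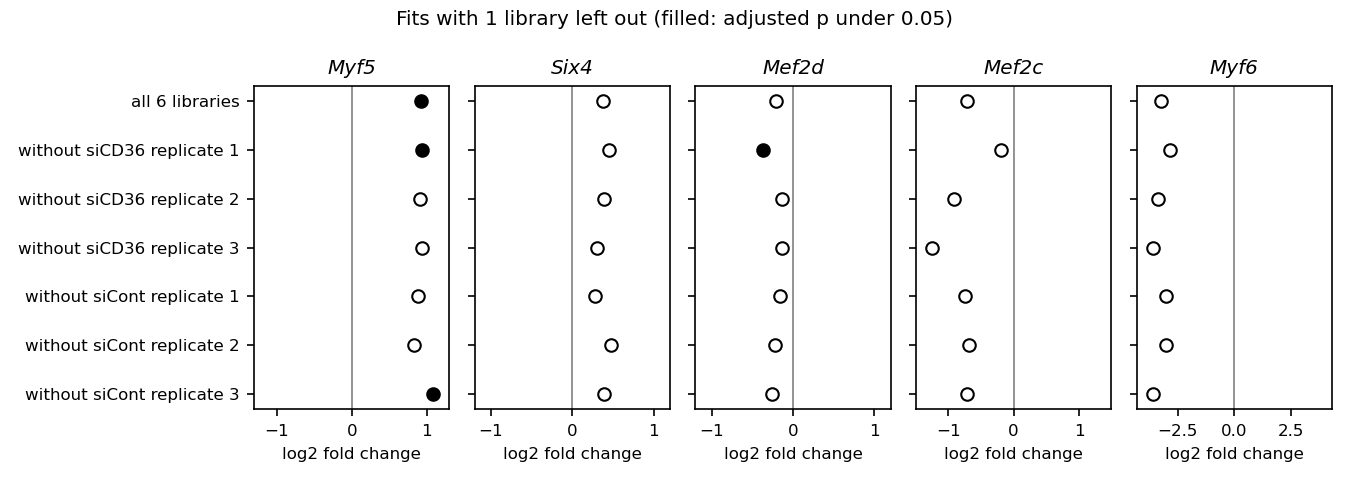
Fitted log2 fold change (horizontal axes, siCD36 minus siCont) of Myf5, Six4, Mef2d, Mef2c and Myf6 with all 6 libraries and with each left out in turn, filled where the edgeR adjusted p was under 0.05 and with Myf6 from the fit without the FPKM filter. Myf5 ranged from 0.83 to 1.08, Mef2c moved from −0.72 to −0.20 without siCD36 replicate 1, and no gene crossed 0.

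Mef2d, the most abundant MEF2 gene here, gave 36.7, 27.7 and 28.4 FPKM with siCD36 and 36.2, 35.3 and 33.7 FPKM with siCont. siCD36 replicates 2 and 3 were below all controls and replicate 1 was just above them by FPKM. The log2 fold change was −0.21 with a standard error of 0.135 (edgeR adjusted p = 0.378). Without siCD36 replicate 1 it was −0.37 and passed the threshold (adjusted p = 0.0468).

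Mef2a, a broadly expressed MEF2 gene, gave 14.0, 14.2 and 13.1 FPKM with siCD36 and 15.6, 15.7 and 14.8 FPKM with siCont. The siCD36 libraries were all lower, by a small margin. The log2 fold change was −0.19 with a standard error of 0.0746 (edgeR adjusted p = 0.171, unadjusted p = 0.0382), and it passed the threshold in none of the 19 alternatives. The gene overlaps Lysmd4 on the opposite strand, at a mean of 3.49 FPKM, and since the strand setting of the counting is not given in the sources used here, reads in the overlap cannot be assigned with certainty.

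Six4, a homeobox factor that acts with the Eya proteins on Myog and other muscle genes in the mouse, gave 4.67, 5.29 and 5.95 FPKM with siCD36 and 3.27, 4.55 and 4.15 FPKM with siCont. The groups did not overlap, though the lowest siCD36 and the highest siCont library were close. The log2 fold change was 0.38 with a standard error of 0.129 (edgeR adjusted p = 0.134, unadjusted p = 0.0232), and it passed in none of its 18 alternatives.

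**Figure D3:**
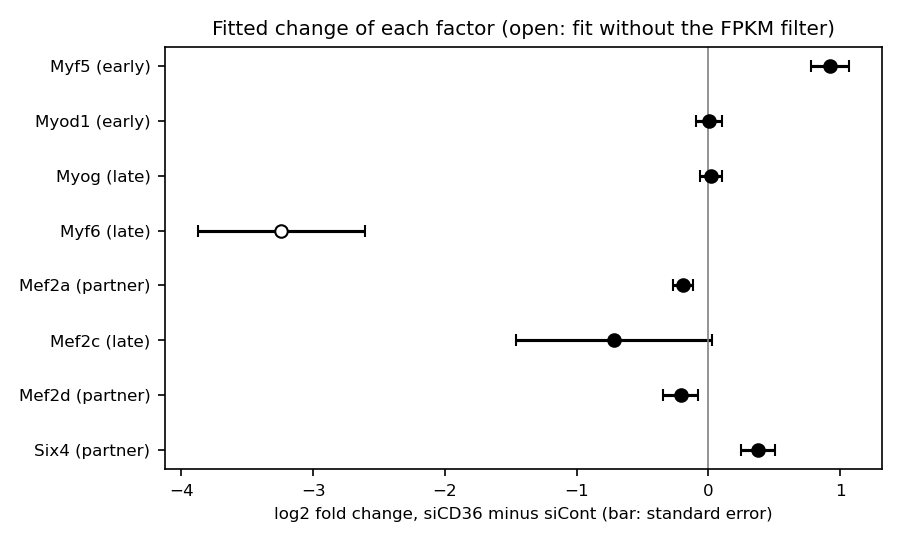
Fitted log2 fold change of each factor (horizontal axis, siCD36 minus siCont, bars for the standard error), filled for genes in the main test and open for Myf6 from the fit without the FPKM filter. Myf5 at 0.93 and Myf6 at −3.24 lie farthest from 0 for their errors, Myod1 and Myog lie at 0.01 and 0.02, and Pax7 is left out for its low counts.

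Early factors were set against late factors by their mean fitted log2 fold changes. With Myf5 and Myod1 as the early and Myog and Mef2c as the late genes that were tested, the early mean exceeded the late mean by 0.81 on the log2 scale. In single libraries, the mean log2 CPM (counts scaled to library size) of these early genes minus that of the late genes was −0.80, −2.40 and −2.58 with siCD36 and −3.02, −3.20 and −2.96 with siCont. Every siCD36 library was above every control, and replicate 1, the library with low Mef2c, stood far above the rest. Without siCD36 replicate 1 the fitted difference was 0.55, with a filter of 5 FPKM, which removes Mef2c, it was 0.45, and without the filter, where Pax7 and Myf6 enter, it was 1.97.

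The early genes did not move together. Within the early pair Myf5 rose while Myod1 was level, and the Myf5 to Myod1 ratio of FPKM was 0.133, 0.162 and 0.156 with siCD36 and 0.0672, 0.0716 and 0.0998 with siCont (exact permutation p = 0.1, adjusted 0.167). Within the late pair, the Myog to Mef2c ratio was 1037, 100 and 74.3 with siCD36 and 82.4, 71.4 and 78.5 with siCont. The groups overlapped (exact permutation p = 0.3, adjusted 0.375), and siCD36 replicate 1, the library with low Mef2c, stood far above the rest. Across the stages, the Myog to Myod1 ratio was 8.29, 8.64 and 8.27 with siCD36 and 7.73, 8.43 and 8.83 with siCont. Its siCD36 values lay inside the control range (exact permutation p = 0.9). The Myog to Myf5 ratio was 62.2, 53.4 and 52.9 with siCD36 and 115, 118 and 88.5 with siCont, again without overlap (exact permutation p = 0.1, adjusted 0.167).

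As shares of the summed FPKM of the 4 MRFs, Myog held 87.4% to 88.8% and Myod1 10.0% to 11.3% over all libraries. The shares of Myog and Myod1 were thus nearly the same in both groups. Myf5 held 1.41%, 1.65% and 1.66% with siCD36 and 0.761%, 0.749% and 1.00% with siCont. Myf6 held 0.0115%, 0.0501% and 0.0636% with siCD36 and 0.499%, 0.530% and 0.168% with siCont. The genes that differed most were thus minor members by RNA level. Of the summed FPKM of Mef2a, Mef2c and Mef2d, Mef2c held 0.834%, 8.72% and 11.2% with siCD36 and 8.32%, 9.62% and 9.81% with siCont.

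Genes that bind to or act on these factors were read from lists of regulators. Among the 3 E proteins, the dimer partners of the MRFs, none passed the test, with Tcf3 at a log2 fold change of 0.24 (edgeR adjusted p = 0.206) and Tcf12 at −0.48 (0.410). Of the 4 Id genes, whose proteins hold E proteins away from DNA, 2 were tested and neither passed, with Id1 at 0.58 (0.0778) and Id2 at 0.53 (0.370). The CPM of Id1 was 10.8, 8.89 and 7.98 with siCD36 and 5.72, 6.52 and 6.28 with siCont, without overlap. None of 7 other bHLH and HES/HEY factors, 6 MRF-binding regulators, 7 relatives or cofactors of Six4 and Pax7 or 6 TEAD and VGLL genes passed, with Hes6 at 0.01 (0.969), Bhlhe40 at 0.19 (0.174), Rb1 at −0.12 (0.548), Zeb1 at −0.35 (0.0755), Tead4 at −0.52 (0.0858) and Tead2 at 0.09 (0.777). At an unadjusted p under 0.05, the lists from the E proteins to the TEAD and VGLL genes held 0, 1, 1, 2, 2 and 2 genes in that order, against 25.4% of all genes, and DESeq2 called 0, 1, 0, 1, 2 and 2. Pax3, the relative of Pax7, was listed at 0.

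Of 9 tested genes that regulate or work with MEF2 and SRF, 2 fell, against 3.06% of all genes. The median log2 fold change was −0.21, beside 0.00 over all genes. At an edgeR unadjusted p under 0.05, 1 was higher and 2 lower, against 12.5% and 12.9% of all genes. DESeq2 called 1 higher and 2 lower, and it called 14.3% of all genes in either direction. Hdac5, a class IIa histone deacetylase that represses MEF2, was at 59.1 ± 5.69 CPM (SD, n = 3) with siCD36 and 88.0 ± 2.98 CPM with siCont, a log2 fold change of −0.57 (edgeR adjusted p = 0.0252). The deacetylase genes Hdac4 and Hdac7 on the same list did not pass, at 0.47 (0.111) and −0.21 (0.328). Smyd1, a muscle methyltransferase required for sarcomere assembly in zebrafish, was at 196 ± 9.68 and 243 ± 5.82 CPM, a change of −0.31 (edgeR adjusted p = 0.0418). Of 12 chromatin cofactors, Suv39h1, a histone H3 lysine methyltransferase, rose by 0.62 (0.0237) and Kat2b, the acetyltransferase PCAF that acetylates MyoD, fell by 0.49 (0.0254). Both of these have been linked to MyoD activity in cultured myoblasts. Of all genes, 2.20% were called higher and 3.06% lower. At an edgeR unadjusted p under 0.05, 2 of the 12 cofactors were higher and 2 lower, and DESeq2 called 2 higher and 1 lower.

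Of 33 tested target genes of the MRFs and MEF2, 3 fell and none rose, against 3.06% and 2.20% of all genes. The median log2 fold change was −0.25, with 8 of 33 above 0. At an unadjusted p under 0.05, 14 were lower and 1 higher, against 12.9% and 12.5% of all genes. DESeq2 called 11 lower and 1 higher, and it called 14.3% of all genes in either direction. Casq2, which stores calcium in the sarcoplasmic reticulum, gave a log2 value of −1.82 with a standard error of 0.206 (edgeR adjusted p = 0.0152). Myh3, embryonic myosin heavy chain, was at −0.62 (0.0210) and Eno3, muscle enolase, at −0.59 (0.0295). Myog itself differed by 0.02. The summed FPKM of the list was 17807 to 23009 with siCD36 and 22988 to 28355 with siCont, ranges that overlapped. Ckm at −0.54 (0.173), Acta1 at −0.38 (0.266), Des at −0.65 (0.136) and Ttn at −0.22 (0.491) did not pass. By FPKM, Ckm, Acta1 and Des fell from replicate 1 to replicate 3 in both groups, and Ttn did so with siCont only. The main fit does not allow for such an order, which widens the spread within each group.

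**Figure D4:**
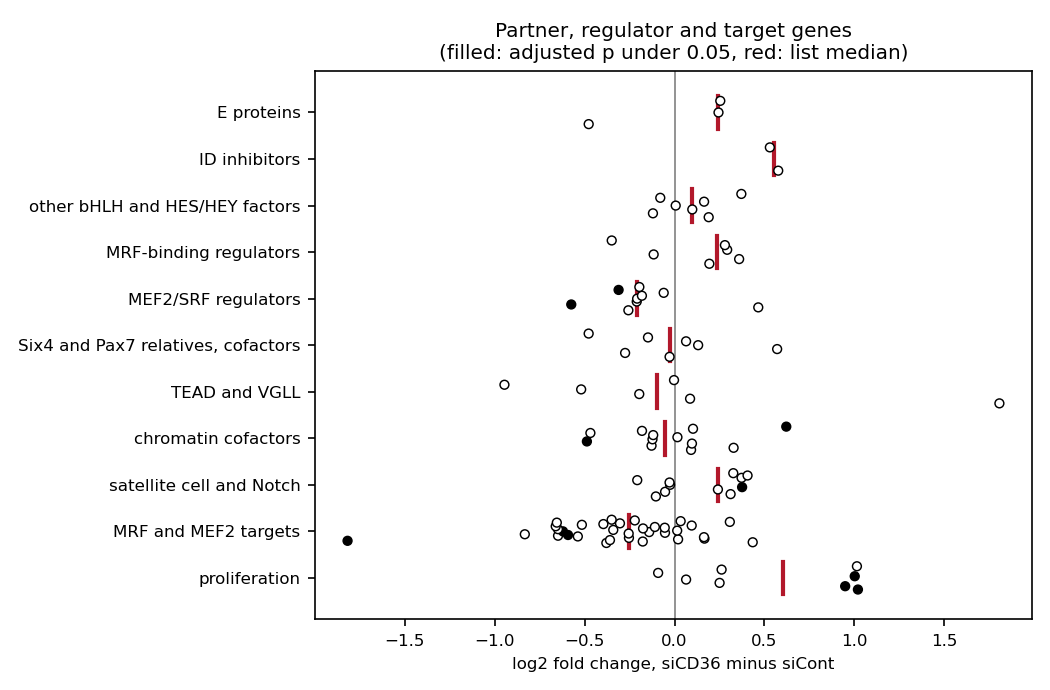
Fitted log2 fold change (horizontal axis, siCD36 minus siCont) of each tested gene of 11 lists of partners, regulators, targets, satellite cell genes and proliferation genes, filled where the edgeR adjusted p was under 0.05, with list medians in red. Medians run from −0.25 for the targets to 0.61 for proliferation, and 11 genes are filled.

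Among 11 tested satellite cell and Notch genes, 1 rose, against 2.20% of all genes. The median log2 fold change was 0.24, with 6 of 11 above 0. The gene called was Ncam1, a cell adhesion molecule of myoblasts and satellite cells, at 0.38 (edgeR adjusted p = 0.0449). At an edgeR unadjusted p under 0.05, 4 were higher and none lower, against 12.5% and 12.9% of all genes. DESeq2 called 2 higher and none lower, and it called 14.3% of all genes in either direction. Of 8 tested proliferation genes 3 rose, with Ccna2 at 1.02 (0.0166), Ccnb2 at 0.95 (0.0366) and Mcm5 at 1.00 (0.0414), and the median was 0.61. At an edgeR unadjusted p under 0.05, 5 of the 8 were higher and none lower, and DESeq2 called 5 higher. The summed FPKM of all 15 proliferation genes was 78.1 to 83.3 with siCD36 and 64.3 to 67.3 with siCont, without overlap. By CPM, the groups did not overlap for Myf5 and for 32.4% of all genes tested. Most of the sum was Rrm2, at 0.26 (0.0599), and Pcna, at −0.09 (0.756), and neither passed. Mki67, under the filter at a mean of 0.572 FPKM, was at 0.556, 0.886 and 1.01 FPKM with siCD36. With siCont it was at 0.370, 0.325 and 0.288 FPKM, without overlap. Ccnb1, Aurka, Plk1 and Birc5, also under the filter, were higher in every siCD36 library, whereas the groups overlapped for Aurkb and Bub1. The part of the proliferation genes in the Myf5 result was not tested.

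Markers of other cell types were read in the same way. Of 8 fibroblast markers, 4 were tested and none passed, and they summed to 56.1 to 62.1 FPKM in siCD36 libraries and 50.8 to 56.2 in siCont libraries. Dcn was the highest at 28.5 FPKM, with a log2 fold change of 0.16. No fibroblast or adipocyte marker reached an unadjusted p under 0.05 or was called by DESeq2. The 6 adipocyte markers summed to 3.88 to 4.00 FPKM with siCD36 and 4.16 to 4.50 with siCont, mostly Pparg, with Plin1, Cidec and Lep at 0, and neither of the 2 tested passed. The 6 osteoblast markers summed to 5.83 to 5.96 FPKM with siCD36 and 9.10 to 12.9 with siCont, mostly Bglap and Runx2, with Ibsp and Alpl at 0. Of the 2 tested, Bglap, a gene with near-identical copies, was called lower at −2.42 (edgeR adjusted p = 0.0120). Runx2 was at 0.41 (0.126), with every siCD36 library above every siCont library by CPM, so the lower sum came from Bglap. The 6 endothelial markers summed to 2.86 to 3.95 FPKM with siCD36 and 1.34 to 1.81 with siCont, mostly Tek. Tek was the 1 tested and rose by 1.15 (0.0216), and Emcn was at 0. The 6 macrophage markers summed to 1.55 to 3.21 FPKM with siCD36 and 1.22 to 2.46 with siCont, Cd68 was the highest at 0.935 FPKM, none was tested, and Adgre1 was at 0. The part of other cell types in the results above was not tested.

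Of the 13 genes from these lists called above, leaving out siCD36 replicate 2 or siCont replicate 2 ended every call, leaving out siCont replicate 1 ended 12, siCont replicate 3 ended 10, siCD36 replicate 3 ended 8 and siCD36 replicate 1 ended 1. The directions of all 13 were kept in these fits, and the highest adjusted p was 0.172, for Ncam1. Among the other alternatives, the fit without the FPKM filter ended 4 of the calls (Ccnb2, Mcm5, Ncam1 and Smyd1, adjusted p of 0.0640 to 0.0785). Scaling by total counts ended those of Mcm5 and Smyd1, as did limma with either pseudocount, and filterByExpr ended that of Ncam1. A filter of 5 FPKM left 8 of the 13 to test and ended the call of Smyd1. Ccna2, Ccnb2, Mcm5, Bglap and Tek were not tested there.

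The genes whose profile over the 6 libraries was nearest to that of Myog, by the root-mean-square distance of log2 CPM centred on each gene's own mean among 6839 genes averaging 5 FPKM or more, included Map2k5 at 0.0181, Gipc1 at 0.0182, 2310033P09Rik at 0.0187 and Trim28 at 0.0223. The median distance of all candidates was 0.163.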

How the data were processed

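RNA-seq of 3 siCD36 and 3 siCont samples of C2C12 cells was read from a table of raw counts per gene, which the authors had not normalized, beside FPKM values to which the authors had applied scaling for gene length and depth. According to the methods, reads were aligned with HISAT and FPKM computed with StringTie. Genes without reads are listed at 1e-04 FPKM. The sources used here do not state the counting tool, the strand setting or the genome build, and 94.7% of genes and 8 of the 9 factors have the coordinates of GENCODE M21 on GRCm38. The table held no column of comparisons and none of other samples.

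Genes averaging 1 FPKM or more were tested, and they held 99.1% to 99.3% of each library. After TMM scaling, edgeR 4.0.16 (glmQLFit, glmQLFTest, in R 4.3.3) was run on condition alone, with Benjamini-Hochberg adjustment across the tested genes. Adjusted p-values in parentheses are from this fit unless stated otherwise. CPM use the TMM library size. Standard errors were derived from the fold change and F. Ratios were tested by 2-sided exact permutation over samples. Alternatives used other scalings and filters, DESeq2 1.42.0, limma 3.58.1 on log2(FPKM + 1), log2(FPKM + 0.1) or voom weights, a replicate block, and each library left out. The analysis script was checked on simulated data. Every pair of libraries differed beyond sampling noise (chi-square per gene 74.1 or more).

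The text names all 9 factors, and from each list up to 4 genes past the threshold or else up to 2 with the highest mean FPKM. Of each list of other cell types it names the most abundant gene and any that passed. Des, Acta1, Ckm and Ttn are named as muscle markers. Mki67, Ccnb1, Aurka, Plk1, Birc5, Aurkb, Bub1, Rrm2 and Pcna were added after their values were seen. So were Pax3, Lysmd4, Runx2, Hdac4, Hdac7, Spry1 and the markers at 0. A few genes within the rule are not reported here. The factors and the lists were chosen with earlier results of these data known. Sequences are from RefSeq.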

Additional observations from a re-analysis of the deposited data

How the results depend on the processing

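The number of genes called was 621, against 327 without the FPKM filter, 1677 with DESeq2, 199 with a replicate block and 20 to 1081 when 1 library was left out (20 without siCD36 replicate 2, 1081 without siCD36 replicate 1). The number of the 9 factors called was 1, against 2 with filterByExpr and 2 with a mean of at least 0.5 FPKM (Myf5 and Myf6), 0 with the replicate block and 0 to 2 when 1 library was left out (2 without siCD36 replicate 1, Myf5 and Mef2d). The early minus late difference was 0.81, against 1.97 without the filter, 1.98 with filterByExpr and 1.77 at 0.5 FPKM, where Myf6 enters, and 0.45 at 5 FPKM, where Mef2c drops out. Myod1, at 0.01, was −0.0035 without the filter and −0.010 with filterByExpr, and leaving out 1 library gave −0.078 to 0.077. Myog gave −0.053 to 0.070 likewise. Whether same-numbered samples were paired is not stated. Correlations of their deviations from the group means were low, at 0.117, 0.0281 and 0.0518. Some genes nevertheless shared an order by replicate number. Spry1 was at 0.00792 and 0.0287 FPKM in replicate 2 of siCD36 and siCont, and at 9.06 to 13.6 FPKM in the other libraries. Ckm, Acta1 and Des fell from replicate 1 to 3 in both groups, and Ttn with siCont only. The source of this order was not tested, and the main fit does not allow for it. The block serves only as an alternative. In it, Myf5 was 0.94 (adjusted p = 0.0596) and 7 of the 13 list genes lost their call (Ccna2, Ccnb2, Kat2b, Mcm5, Ncam1, Smyd1 and Suv39h1, adjusted p of 0.0517 to 0.0768). DESeq2 without a filter called Myf6 (adjusted p = 6.46e-06). Myf5, Mef2a, Mef2c, Mef2d, Six4 and Myf6 kept their direction in every alternative run. Pax7 and Myf6 had the lowest levels of the 9, and their spread among siCont libraries went beyond counting error.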

Other observations

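Among genes within 200000 bp of a factor that were not on any list, Mnat1, a subunit of the CDK-activating kinase that lies 10261 bp from Six4 on the opposite strand, rose by a log2 fold change of 0.40 with a standard error of 0.0816 (edgeR adjusted p = 0.0465). Nes, the intermediate filament nestin, lies 161921 bp from Mef2d and fell by 0.73 (standard error 0.0619, edgeR adjusted p = 0.00982). Ppfia4, 4235 bp from Myog, was at −0.03 (adjusted p = 0.927). Apart from the factors themselves, no other gene in this range passed. Of all genes tested, 5.26% were called, and the share among neighbours was not set against it. Mnat1, Nes and Ppfia4 were named after their values were seen.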
